A study of Homo sapiens with 51 samples.

Results

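Cell cycle and DNA replication genes were followed across 5 human pancreatic ductal adenocarcinoma (PDA) cell lines: 51 genes chosen by symbol, out of 25421 gene symbols in the count table. All 51 symbols were found. They were sorted by role into 9 cyclins, cyclin-dependent kinases (CDKs) and their activator, 12 genes of replication licensing and the replication fork, 3 of nucleotide supply, 3 transcription factors, 9 mitotic kinases, checkpoint and anaphase-promoting complex (APC/C) genes, 11 of the centromere and spindle, 2 proliferation markers and 2 CDK inhibitors. In the transduced lines, 49 of the 51 had enough counts to be tested, and MCM2 and CDKN2B did not.

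The series held 51 PLATE-seq libraries in 17 groups of 3. PLATE-seq tags the 3′ end of each transcript with a well barcode, pools the wells and counts the tags. KP4, PANC1 and PK45H were each sequenced untreated, with a lentiviral open reading frame for mCherry (a fluorescent protein used as the control), with one for OVOL2 (a zinc-finger transcription factor), with mCherry plus M2rtTA, and with OVOL2 plus M2rtTA. M2rtTA is a transactivator that raises expression from tetracycline-inducible promoters. HPAFII and PATU8988S were sequenced untreated only. Per the labels, virus was given in triplicate wells at a multiplicity of infection of 2 with 8 µg/ml polybrene, and the transduced cells then received 2.5 µg/ml puromycin and 0.6 µg/ml doxycycline from the next day. All 4 transduced groups of a line therefore shared virus, puromycin and doxycycline, and RNA was collected at 6 days. The promoter driving the open reading frame is not named in the labels. Each line is a single established line, so p-values within a line measure the spread between its wells, pooled over its 5 groups of 3. P-values over lines measure the same spread between wells, pooled over the groups of all 3 lines. They do not measure the spread between lines.

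The cell cycle is driven by cyclins that bind and activate CDKs. E2F factors turn on the enzymes of DNA synthesis as cells pass from G1 into S phase, and MYBL2, FOXM1 and the DREAM complex control a later wave of genes that build the spindle and separate the chromosomes. CDK inhibitors such as p21, the product of CDKN1A, hold the kinases in check, and cells that stop dividing lose the transcripts of both waves.

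Library totals ran from 1165399 counts (HPAFII replicate 2, which stood apart) to 7490556, with a median of 4771717, and 15653 to 18817 symbols had a count. The keratins KRT7, KRT8, KRT18 and KRT19 summed to at least 574 CPM (counts scaled to a common library size) in every library, while 4 acinar markers reached at most 7.42 CPM, 4 endocrine markers 1.81, 4 leukocyte markers 16.5 and 3 endothelial markers 13.7. OVOL2 itself gave few counts. Without M2rtTA it had 1 to 10 counts in the 9 libraries labelled OVOL2 and 0 to 16 in the 9 labelled mCherry, so the tag counts did not check those labels. With M2rtTA it had 9 to 62 counts against 0 to 6 in KP4, 18 to 23 against 3 to 12 in PK45H, and 6 to 20 against 2 to 7 in PANC1, where the groups overlapped. Groups are named here by their labels.

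With OVOL2, the proliferation genes were lower in all 3 transduced lines. The summed level of 48 of the genes (all but CDKN1A, CDKN2B and CCND1) was 4292, 3892 and 3869 CPM in the KP4 mCherry libraries and 3066, 2997 and 3007 CPM in the KP4 OVOL2 libraries. With M2rtTA it was 3930, 4314 and 4201 CPM against 2459, 2709 and 2554 CPM. The OVOL2 libraries lay below every mCherry library of their arm, and the sum stood at 75.3% of the mCherry mean without M2rtTA and 62.1% with it. PANC1 went from a mean of 3228 ± 182 CPM (SD, n = 3) to 2416 ± 51.3 CPM without M2rtTA, and from 3220 ± 229 to 2330 ± 106 CPM with it, or 74.8% and 72.4%. PK45H went from 3454 ± 126 to 2675 ± 148 CPM and, with M2rtTA, from 3253 ± 52.1 to 1944 ± 119 CPM, or 77.4% and 59.8%. In none of the 6 comparisons did the OVOL2 and mCherry libraries overlap. In bulk RNA, fewer dividing cells and less of each transcript per dividing cell cannot be told apart.

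**Figure D1:**
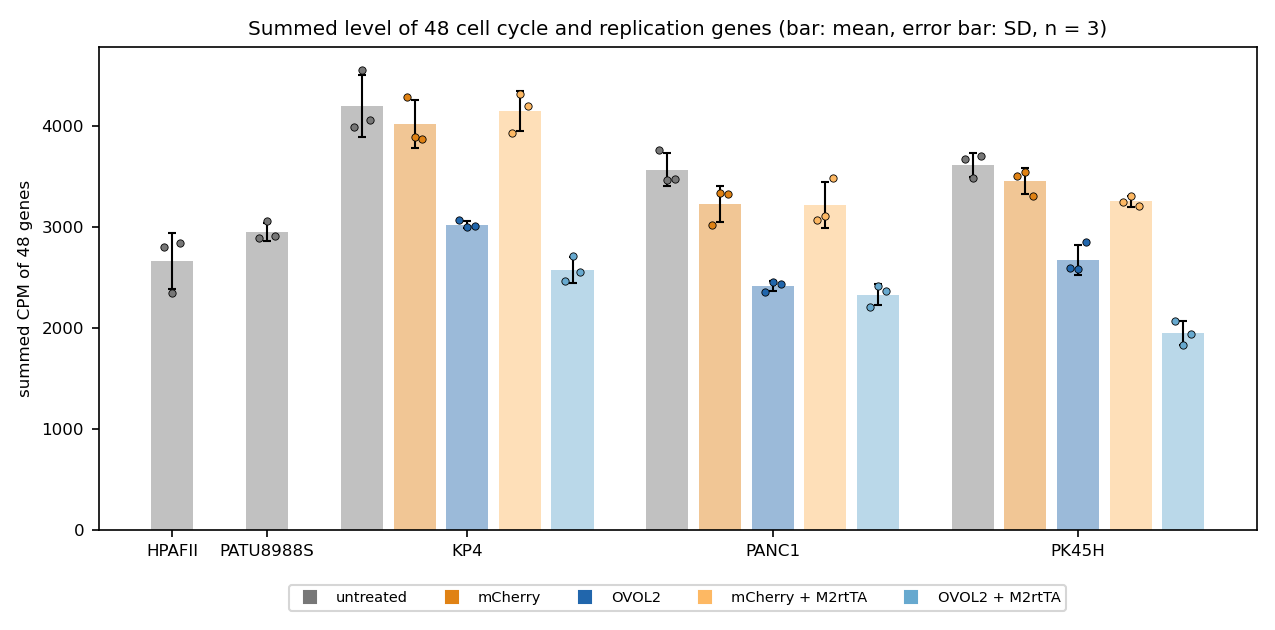
Summed CPM (y axis) of 48 cell cycle and replication genes in every library (points), with group means (bars) and SD (error bars, n = 3), for the 5 lines (x axis) and the treatment groups (colours). OVOL2 libraries lie below the mCherry libraries of the same line and arm, with the lowest mean, 1944 CPM, in PK45H with OVOL2 and M2rtTA.

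Gene by gene, 28 of the 49 tested genes fell and 1 rose in the mean over the 3 lines without M2rtTA (edgeR quasi-likelihood test, adjusted p under 0.05), where 18.1% of all 14943 genes tested passed, 8.81% of them lower and 9.32% higher as shares of all tested. With M2rtTA, 39 fell and 1 rose, where 32.9% of all genes passed, 17.3% lower and 15.7% higher. The median log2 fold change of the 49 was -0.35 without M2rtTA and -0.55 with it, against 0.00 and 0.03 over all genes tested. The 1 gene that rose was CDKN1A in both arms. Both arms were tested against separate mCherry libraries.

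Within single lines fewer genes passed. Without M2rtTA, 5 genes fell and 1 rose in KP4, where 6.82% of all genes tested passed (3.56% lower, 3.26% higher). PANC1 had 8 that fell (all genes 5.08%, lower 2.96%) and PK45H 9 that fell (all genes 8.39%, lower 4.81%). With M2rtTA, 24 fell and 1 rose in KP4 (all genes 22.4%, lower 12.5%, higher 9.91%), 14 fell in PANC1 (all genes 13.9%, lower 8.18%), and 26 fell and 1 rose in PK45H (all genes 15.9%, lower 8.4%, higher 7.45%). BUB1B passed in all 3 lines in both arms, and AURKA, BIRC5, BUB1, CCNB2, CDC20, PCNA, PLK1 and TOP2A passed as lower in all 3 with M2rtTA. Of 12505 genes tested in all 3 lines, 0.64% passed as lower in each without M2rtTA and 2.41% with it. Of the 9 genes that did so with M2rtTA, TOP2A lost its PANC1 call in each of the 6 fits that left out 1 of the libraries compared (adjusted p up to 0.115) and its PK45H call without mCherry with M2rtTA replicate 3 (0.0502), and PCNA lost its PK45H call in 4 of 6 (up to 0.141), those without OVOL2 with M2rtTA replicate 2 or 3 or mCherry with M2rtTA replicate 2 or 3. Estimates pointed down in all 3 lines for 39 of the 49 genes in each arm, as they did for 21.6% of all genes without M2rtTA and 24.7% with it. The counts without M2rtTA rested on few wells: KP4 fell to 3 calls without OVOL2 replicate 2, PANC1 to 4 without OVOL2 replicate 3 or mCherry replicate 2 and to 5 without OVOL2 replicate 1 or mCherry replicate 3, and PK45H to 5 without OVOL2 replicate 1. Fits of only the 6 libraries compared gave 4 calls in PANC1 and 4 in PK45H.

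Separation of the libraries gave a second count. Without M2rtTA all 3 OVOL2 libraries lay below all 3 mCherry libraries for 27 of the 49 genes in KP4 (13.5% of all genes tested), 23 in PANC1 (13.1%) and 21 in PK45H (12.3%). With M2rtTA the counts were 32 (19.2%), 27 (18.2%) and 34 (18%). The 10 genes so separated in every line without M2rtTA were AURKA, BIRC5, BUB1, BUB1B, CDC20, CDK1, CENPF, KIF20A, MCM10 and MCM3 (2.35% of all genes tested in the 3 lines), and 21 genes were so separated with M2rtTA (5.72%). In PANC1 the share of counts from 13 mitochondrial genes also moved with OVOL2, from 22.5 to 25.9% in mCherry to 28.3 to 29.1% in OVOL2 libraries and, with M2rtTA, from 25 to 25.3% to 30.3 to 31.5%. Its part in the PANC1 values was not tested, and in KP4 and PK45H the ranges overlapped in both arms.

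**Figure D2:**
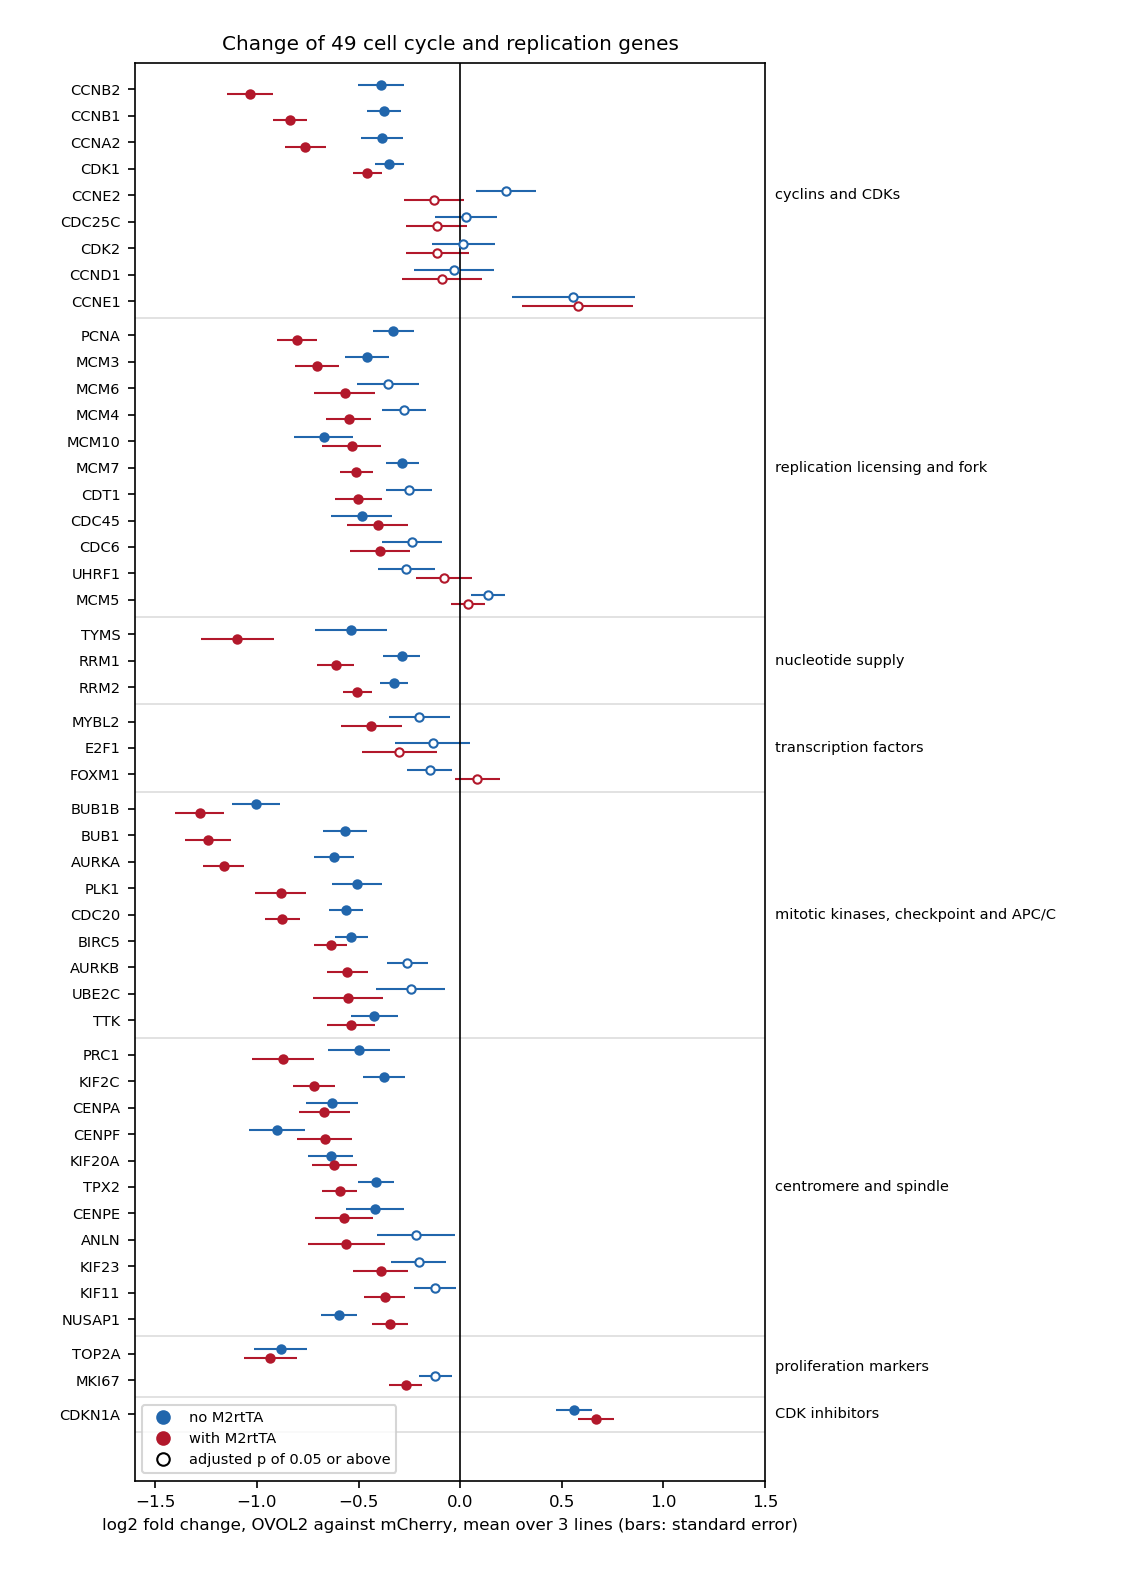
Log2 fold change of OVOL2 against mCherry, mean over KP4, PANC1 and PK45H (x axis, bars are standard errors), for the 49 tested genes by role (y axis), without M2rtTA (blue) and with it (red); open points did not pass an adjusted p of 0.05. All 20 mitotic kinase, checkpoint, centromere and spindle genes lie left of 0 in both arms, and CDKN1A lies right of 0.

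Promoters of the 51 genes were looked up in a set of RefSeq (GRCh38.p14) windows of 300 bases, 250 before to 50 after the annotated start. The set used had no window for CCND1, CCNE2, CDK2, MCM4, MCM5, FOXM1, AURKA, TTK, BIRC5, UBE2C and TPX2. It held windows for the other 40 genes. These windows were of genes that fell, of CDKN1A, which rose, and of genes that did not pass or could not be tested. Each was searched on both strands for 3 motifs: the cell cycle homology region (CHR, TTTGAA) bound by DREAM and MYBL2-containing complexes, the CCAAT box (CCAAT) bound by NF-Y, and the E2F site, taken as TTTCCCGC, TTTCGCGC, TTTGCCGC or TTTGGCGC, whose matches on opposite strands can overlap each other. The 200 bases before the start are shown for 8 genes, chosen as examples after the matches were seen, with every match in capitals (matches on the other strand appear in their reversed and complemented form). BUB1B, PLK1, CDC20 and TOP2A are from the mitotic genes and proliferation markers, and CCNB2 is from the cyclins and CDKs. MCM6 and PCNA are from replication, and CDKN1A is the gene that rose.
BUB1B: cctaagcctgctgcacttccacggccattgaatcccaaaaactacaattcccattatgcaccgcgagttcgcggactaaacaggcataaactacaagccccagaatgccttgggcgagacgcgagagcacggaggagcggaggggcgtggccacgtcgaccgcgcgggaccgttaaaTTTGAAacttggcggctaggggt
CCNB2: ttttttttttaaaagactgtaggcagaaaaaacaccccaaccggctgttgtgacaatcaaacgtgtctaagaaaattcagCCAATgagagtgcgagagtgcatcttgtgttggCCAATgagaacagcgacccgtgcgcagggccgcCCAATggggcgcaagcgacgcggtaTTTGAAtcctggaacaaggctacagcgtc
PLK1: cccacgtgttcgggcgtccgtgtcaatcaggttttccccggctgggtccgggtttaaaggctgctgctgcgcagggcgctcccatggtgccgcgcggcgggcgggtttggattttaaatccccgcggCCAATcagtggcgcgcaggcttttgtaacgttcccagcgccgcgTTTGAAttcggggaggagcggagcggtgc
CDC20: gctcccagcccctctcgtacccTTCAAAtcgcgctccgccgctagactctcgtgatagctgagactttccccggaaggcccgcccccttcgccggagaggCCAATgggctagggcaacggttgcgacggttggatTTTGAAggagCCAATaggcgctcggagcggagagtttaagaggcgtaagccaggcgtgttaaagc
TOP2A: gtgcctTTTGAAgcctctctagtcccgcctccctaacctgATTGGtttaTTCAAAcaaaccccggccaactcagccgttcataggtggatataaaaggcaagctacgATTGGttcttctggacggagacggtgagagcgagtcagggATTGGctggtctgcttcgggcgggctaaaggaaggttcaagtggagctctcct
MCM6: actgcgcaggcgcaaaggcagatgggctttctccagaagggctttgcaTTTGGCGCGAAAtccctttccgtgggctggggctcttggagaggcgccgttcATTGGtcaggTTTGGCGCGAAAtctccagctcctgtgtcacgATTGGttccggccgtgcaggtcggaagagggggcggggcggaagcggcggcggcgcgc
PCNA: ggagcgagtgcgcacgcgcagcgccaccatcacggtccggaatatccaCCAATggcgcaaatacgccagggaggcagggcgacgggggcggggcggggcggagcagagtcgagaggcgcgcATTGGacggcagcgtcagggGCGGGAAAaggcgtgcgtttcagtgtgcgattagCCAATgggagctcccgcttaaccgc
CDKN1A: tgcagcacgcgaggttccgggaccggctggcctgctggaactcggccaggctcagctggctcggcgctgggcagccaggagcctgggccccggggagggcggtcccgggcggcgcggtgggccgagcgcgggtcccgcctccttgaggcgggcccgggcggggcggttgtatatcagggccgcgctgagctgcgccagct
On the plus strand these are chr15:40160869-40161068 (BUB1B), chr15:59104946-59105145 (CCNB2), chr16:23678689-23678888 (PLK1), chr1:43358781-43358980 (CDC20) and chr6:36678514-36678713 (CDKN1A). On the minus strand they are chr17:40417897-40418096 (TOP2A), chr2:135876444-135876643 (MCM6) and chr20:5126623-5126822 (PCNA).

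A CHR match began 23 bases before the BUB1B start and 29 bases before both the CCNB2 and the PLK1 start, and in CCNB2 3 CCAAT matches stood 54, 87 and 120 bases before it. Over the 17 mitotic genes and proliferation markers with a window, 12 held a CHR match (70.59%), compared with 15.43% of 27305 promoter windows of all genes, and 2 held an E2F match (11.76%, all promoters 3.33%). Of 13 replication and nucleotide genes the reverse held: 1 had a CHR match (7.69%) and 9 an E2F match (69.23%). CCAAT was common in both, in 13 of 17 (76.47%) and 10 of 13 (76.92%), compared with 35.7% of all promoters. The cyclin and CDK genes are in neither set. Among those with a window, CCNB2 and CDK1 held a CHR match, and CCNA2, CCNB1, CDC25C and CCNE1 did not. The CDKN1A window held none of the 3 motifs. A match here is a description of letters and not a shown binding site.

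**Figure D3:**
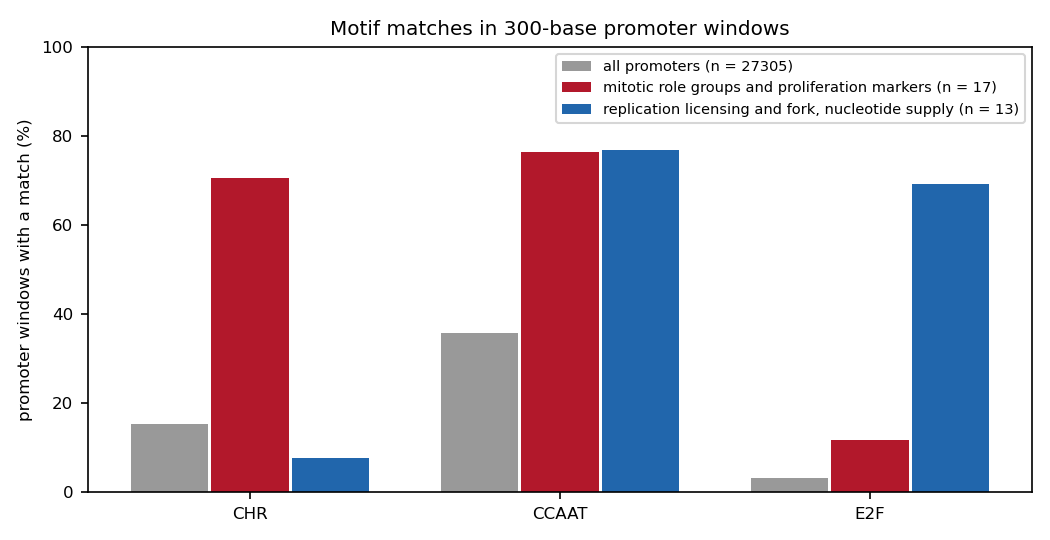
Share of 300-base RefSeq promoter windows with at least 1 match (y axis, %) to each motif (x axis), for all promoters, the mitotic genes and proliferation markers, and the replication and nucleotide genes. CHR matches are in 70.59% of the mitotic windows and E2F matches in 69.23% of the replication windows.

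Mitotic kinases and checkpoint genes had the lowest medians of the role groups with more than 1 tested gene. Of 9 tested, 7 fell over lines without M2rtTA (median log2 fold change -0.54) and all 9 with it (-0.87). Of all genes tested, 8.81% fell over lines without M2rtTA and 17.3% with it. BUB1B encodes BubR1, which with the kinase BUB1 delays anaphase until every chromosome is attached to the spindle. BUB1B was at 42.6, 28.6 and 31.6 CPM in KP4 mCherry and 16.4, 18.7 and 10.3 CPM in KP4 OVOL2 libraries, and at 30.1, 36.8 and 34.4 against 15.3, 12.7 and 14.1 CPM with M2rtTA. In PANC1 it was at 39, 35.8 and 38.3 against 20.7, 22.2 and 18.3 CPM, and at 33.8, 46.4 and 44.7 against 14.4, 15.8 and 15.3 CPM with M2rtTA. In PK45H it was at 38.8, 26 and 24.9 against 11.8, 19 and 14.1 CPM, and at 31.4, 30.8 and 25 against 12.4, 9.59 and 16.8 CPM with M2rtTA. Every OVOL2 library was below every mCherry library of its line and arm. Over lines BUB1B fell without M2rtTA (log2 fold change -1.01, SE 0.12, adjusted p = 6.33e-08) and with it (log2 fold change -1.28, SE 0.12, adjusted p = 1.37e-10).

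BUB1 fell over lines in both arms, without M2rtTA (log2 fold change -0.57, SE 0.11, adjusted p = 0.00021) and with it (log2 fold change -1.24, SE 0.11, adjusted p = 7.55e-11). Its lowest levels were in PK45H with M2rtTA, at 8.91, 3.89 and 5.45 CPM against 23.1, 24.7 and 23.5 CPM with mCherry. AURKA, the Aurora A kinase of the centrosome, was at 61.3, 83.4 and 65.3 CPM in KP4 mCherry with M2rtTA and 31.4, 25.9 and 22.6 CPM with OVOL2 and M2rtTA. The same pair of groups gave 73.7, 70.4 and 84 against 55.4, 29.6 and 33.6 CPM in PANC1 and 47.2, 46.9 and 50.3 against 26.7, 21.3 and 15.4 CPM in PK45H. No library of one group reached the other in any line, although PANC1 OVOL2 replicate 1 stood well above the other two. Over lines AURKA fell by 1.16 on the log2 scale with M2rtTA (SE 0.10, adjusted p = 2.50e-11) and by 0.62 without it (SE 0.10, adjusted p = 1.55e-05).

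CDC20, which activates the APC/C, fell in both arms (-0.56 and -0.87 on the log2 scale, adjusted p = 5.61e-06 and 3.39e-10), as did PLK1, the polo-like kinase of mitotic entry (-0.51 and -0.88, adjusted p = 0.00306 and 8.45e-07), and BIRC5, or survivin, of the chromosomal passenger complex (-0.54 and -0.64, adjusted p = 7.74e-06 and 1.26e-07). TTK, the checkpoint kinase MPS1, also passed in both arms. AURKB, the passenger complex kinase, and UBE2C, the ubiquitin-conjugating enzyme of the APC/C, passed with M2rtTA (-0.56 and -0.55, adjusted p = 4.74e-05 and 0.0112) and not without it (-0.26 and -0.24, adjusted p = 0.0688 and 0.362).

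Centromere and spindle genes fell over lines as a second block, 8 of 11 without M2rtTA (median -0.42) and all 11 with it (-0.59). Among all genes tested 8.81% and 17.3% fell. CENPF, a kinetochore protein that accumulates in G2, was at 176, 167 and 229 CPM in KP4 mCherry and 87.5, 70.3 and 108 CPM in KP4 OVOL2 libraries, and in PK45H it was at 178, 255 and 111 against 92.9, 77.4 and 87.7 CPM. The groups were apart in both lines, with PK45H mCherry replicates spread widely. The KP4 call was lost without OVOL2 replicate 1, OVOL2 replicate 2 or mCherry replicate 3 (adjusted p up to 0.0946). In PANC1 the groups were also apart, but CENPF did not pass. Over lines CENPF fell in both arms (without M2rtTA log2 fold change -0.90, SE 0.14, adjusted p = 6.17e-06; with M2rtTA log2 fold change -0.67, SE 0.14, adjusted p = 0.000186). PRC1, which bundles the microtubules of the central spindle, fell by 0.50 without M2rtTA and by 0.87 with it (adjusted p = 0.018 and 2.20e-05), the lowest value of the block with M2rtTA. NUSAP1, a spindle microtubule binder, had the value nearest 0 with M2rtTA (-0.34, adjusted p = 0.00213) and one of -0.60 without it (adjusted p = 3.87e-06). The motors KIF11, KIF20A, KIF23 and KIF2C, with CENPA, CENPE, TPX2 and ANLN, lay between -0.72 (KIF2C) and -0.37 (KIF11) with M2rtTA. ANLN, KIF11 and KIF23 did not pass without it.

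Over lines, 4 of the 9 cyclin and CDK genes fell in both arms: CCNA2, CCNB1, CCNB2 and their kinase CDK1, which act from S phase into mitosis. This was 44.4% in each arm, where 8.81% of all genes fell without M2rtTA and 17.3% with it. The 5 others (CCND1, CCNE1, CCNE2, CDK2 and CDC25C) passed in neither arm. Within single lines without M2rtTA, 0 of the 9 passed in KP4, PANC1 or PK45H (all genes 6.82%, 5.08% and 8.39%). With M2rtTA 4 passed in KP4, 1 in PANC1 and 4 in PK45H (all genes 22.4%, 13.9% and 15.9%). CCNB1, the cyclin of mitotic entry, was at 347, 352 and 381 CPM in KP4 mCherry with M2rtTA and 178, 188 and 187 CPM with OVOL2 and M2rtTA, and in PK45H the same groups were at 275, 244 and 229 against 129.8, 115 and 104 CPM. In PANC1 they were at 189, 165 and 231 against 118, 148 and 151 CPM, closer together but still apart. That PANC1 change did not pass (log2 fold change -0.45). Without M2rtTA the OVOL2 and mCherry libraries overlapped in PK45H (179.9, 204 and 284 against 252, 269 and 259.5 CPM). Over lines CCNB1 fell by 0.37 without M2rtTA (SE 0.09, adjusted p = 0.00162) and by 0.84 with it (SE 0.09, adjusted p = 1.12e-09). CCNB2 fell by 0.39 and 1.03, CCNA2 by 0.38 and 0.76, and CDK1 by 0.35 and 0.46.

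CCND1, the cyclin D of early G1, did not pass over lines: its log2 fold change was -0.03 without M2rtTA (SE 0.20, adjusted p = 0.947) and -0.09 with it (SE 0.20, adjusted p = 0.777). Its replicates were spread widely, from 152 to 315 CPM among PANC1 mCherry libraries alone (153, 315 and 152). CCNE1, the G1/S cyclin, had estimates above 0, 0.56 (SE 0.30, adjusted p = 0.218) and 0.58 (SE 0.27, adjusted p = 0.104), at 0.388 to 8.76 CPM in the libraries compared. At these low levels neither value passed. CCNE2, CDK2 and the CDK1-activating phosphatase CDC25C had estimates from -0.13 (CCNE2 with M2rtTA) to 0.23 (CCNE2 without it), with standard errors of 0.15 or 0.16.

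Of 11 tested genes of replication licensing and the fork, 5 fell over lines without M2rtTA (median -0.28) and 9 with it (median -0.51). The shares of all genes that fell were 8.81% and 17.3%. Whether this role group differed from the mitotic genes was not tested. PCNA, the sliding clamp of DNA polymerase, was at 51.6, 75.2 and 53.7 CPM in KP4 mCherry with M2rtTA and 30.1, 33 and 31.6 CPM with OVOL2 and M2rtTA. The same groups gave 80.6, 60.3 and 68.7 against 35.4, 39.1 and 41.6 CPM in PANC1 and 78.5, 107 and 104 against 74.5, 62.2 and 45 CPM in PK45H. The groups did not overlap in any line, and PK45H came closest. PCNA fell by 0.80 over lines with M2rtTA (SE 0.10, adjusted p = 6.27e-08) and by 0.33 without it (SE 0.10, adjusted p = 0.017).

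Among the MCM helicase genes, MCM3 fell by 0.46 without M2rtTA and by 0.70 with it (adjusted p = 0.00254 and 3.84e-06), and MCM7 by 0.28 and 0.51 (adjusted p = 0.0109 and 4.57e-06). MCM4 and MCM6 passed with M2rtTA (-0.55 and -0.57, adjusted p = 0.000162 and 0.00316) and not without it. MCM5, of the same ring, did not pass in either arm, at 0.14 (SE 0.08, adjusted p = 0.281) and 0.04 (SE 0.08, adjusted p = 0.774). MCM2 could not be described: it had 29 counts over all 51 libraries, 0 in 39 of them and at most 5 in any. MCM10 and CDC45, which activate the helicase, passed in both arms, the licensing factors CDC6 and CDT1 passed with M2rtTA, and UHRF1, which recruits maintenance methylation to new DNA, passed in neither (-0.27 and -0.08, adjusted p = 0.202 and 0.715).

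The 3 nucleotide genes all fell over lines in both arms, where 8.81% of all genes fell without M2rtTA and 17.3% with it. TYMS, thymidylate synthase, was at 286, 451 and 429.9 CPM in KP4 mCherry with M2rtTA and 188, 158 and 129 CPM with OVOL2 and M2rtTA, a separation with no overlap, and at 294, 322 and 357 against 111, 118 and 186 CPM in PK45H. Over lines it fell by 0.54 without M2rtTA (SE 0.18, adjusted p = 0.0312) and by 1.10 with it (SE 0.18, adjusted p = 8.76e-06). ENOSF1 overlaps TYMS on the opposite strand and the counting is not stated to use strand, so reads of the pair cannot be told apart. RRM1 and RRM2, the subunits of ribonucleotide reductase, fell by 0.29 and 0.33 without M2rtTA (adjusted p = 0.0254 and 0.000934) and by 0.61 and 0.51 with it (adjusted p = 2.17e-06 and 5.90e-07). In single lines without M2rtTA, 0 of the 3 passed in KP4, 1 in PANC1 and 1 in PK45H (all genes 6.82%, 5.08% and 8.39%). With M2rtTA 3 passed in KP4, 0 in PANC1 and 3 in PK45H (all genes 22.4%, 13.9% and 15.9%).

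Of the 3 transcription factors of the programme, 1 fell over lines and only with M2rtTA. That share, 33.3%, was near the 32.9% of all genes that passed in that arm (17.3% lower). Without M2rtTA 0 of the 3 passed (all genes 18.1%). MYBL2 passed with M2rtTA (log2 fold change -0.44, SE 0.15, adjusted p = 0.0221) and not without it (log2 fold change -0.20, SE 0.15, adjusted p = 0.399). E2F1 had -0.13 without M2rtTA (SE 0.19, adjusted p = 0.68) and -0.30 with it (SE 0.19, adjusted p = 0.23), at 4.89 to 16.6 CPM in the libraries compared. FOXM1 had -0.15 and 0.08 (SE 0.11 and 0.11, adjusted p = 0.394 and 0.609).

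The proliferation markers differed in size of change. TOP2A, topoisomerase IIα of S phase and mitosis, was at 279, 240.4 and 277 CPM in KP4 mCherry and 125, 81 and 120.4 CPM in KP4 OVOL2 libraries, and at 231, 286 and 267 against 99.9, 138 and 121 CPM with M2rtTA. Every KP4 OVOL2 library was far below every mCherry library, whereas in PANC1 without M2rtTA OVOL2 replicate 2 reached the mCherry range (90.1, 162 and 104 against 156, 179.9 and 184 CPM). Over lines TOP2A fell by 0.88 without M2rtTA (SE 0.13, adjusted p = 4.72e-06) and by 0.93 with it (SE 0.13, adjusted p = 6.40e-07). MKI67, whose protein Ki-67 coats mitotic chromosomes, was at 296, 239.8 and 264 CPM in KP4 mCherry and 249, 255 and 283 CPM in KP4 OVOL2 libraries, which overlapped. With M2rtTA it was at 284, 260.1 and 304 against 210.4, 247 and 193 CPM in KP4 and 247, 283 and 249 against 208, 216 and 225 CPM in PK45H, both apart. Over lines MKI67 did not pass without M2rtTA (-0.12, SE 0.08, adjusted p = 0.323) and fell by 0.27 with it (SE 0.08, adjusted p = 0.00843). It passed in no single line.

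**Figure D4:**
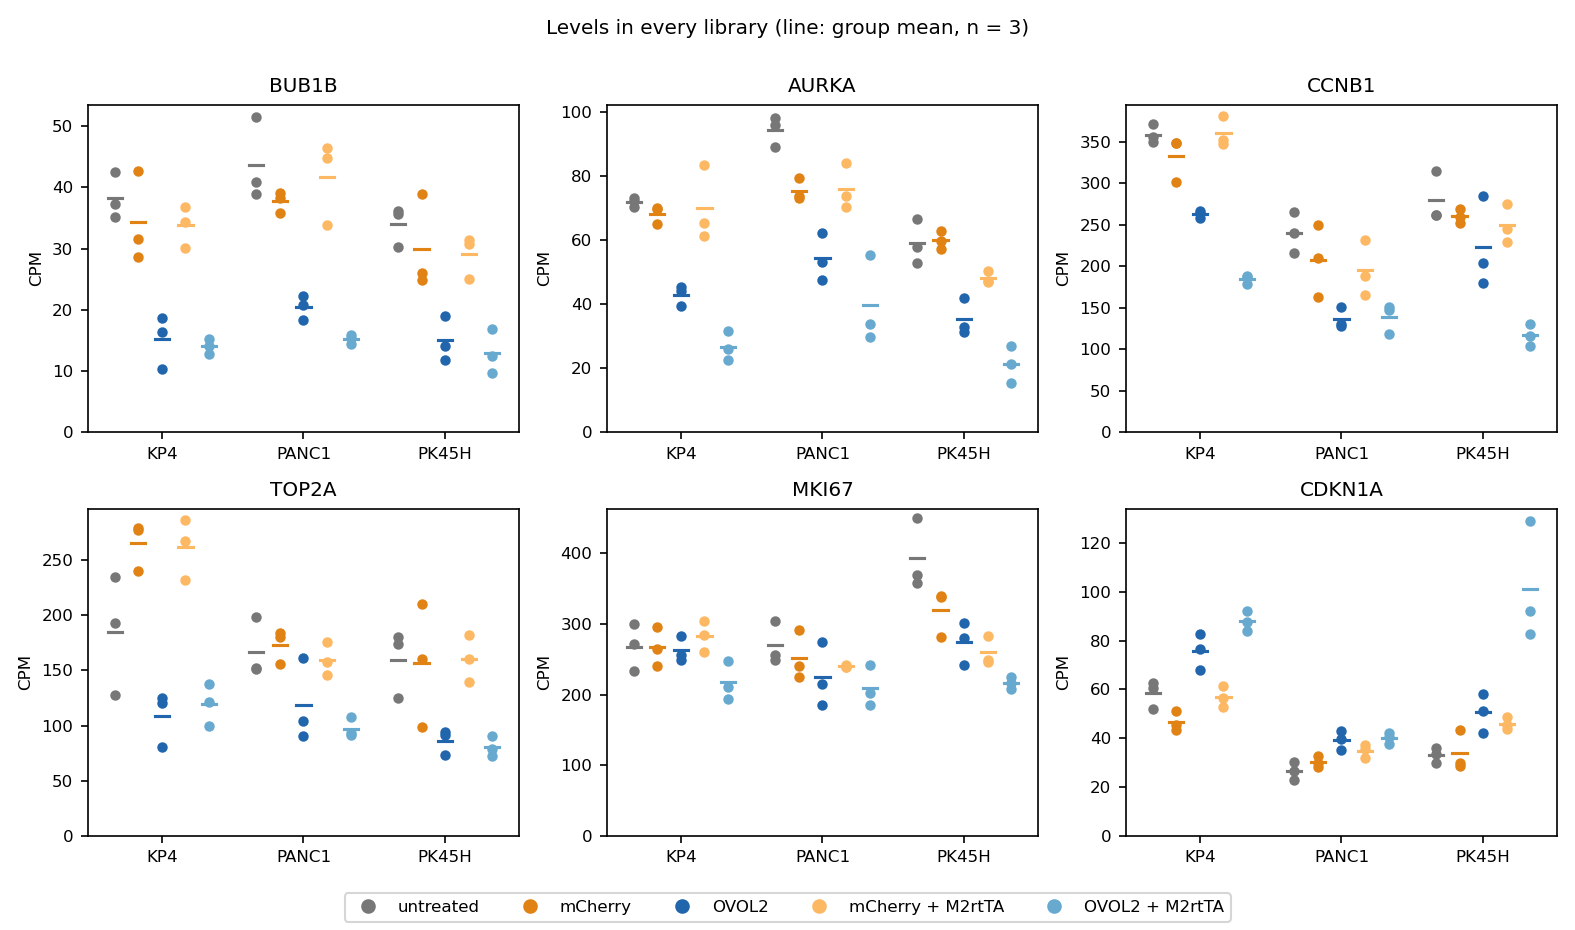
Level in CPM (y axis, linear from 0) of 6 genes in every library (points, with group means as lines, n = 3) of KP4, PANC1 and PK45H (x axis), coloured by treatment. BUB1B OVOL2 libraries lie below the mCherry libraries in all 3 lines, and MKI67 overlaps in KP4 without M2rtTA. The CDKN1A group mean is highest in PK45H with OVOL2 and M2rtTA, at 129, 92 and 82.7 CPM. Of these libraries, only the first is above all KP4 libraries with OVOL2 and M2rtTA.

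CDKN1A, which encodes the CDK inhibitor p21, rose. In KP4 it went from 45.4, 51.2 and 43.6 CPM with mCherry to 76.5, 68 and 82.6 CPM with OVOL2, and with M2rtTA from 61.5, 52.7 and 56.4 to 84.1, 92.1 and 87.5 CPM. In PK45H with M2rtTA it went from 45.5, 43.7 and 48.5 to 129, 92 and 82.7 CPM. In these 3 comparisons every OVOL2 library was above every mCherry library, with replicate 1 the highest in PK45H. In PK45H without M2rtTA the groups overlapped, at 28.8, 29.9 and 43.5 against 42.3, 51.2 and 58.2 CPM, and the change did not pass (log2 fold change 0.54, SE 0.19, adjusted p = 0.099). PANC1 had its libraries apart, at 32.9, 28.1 and 30.0 against 35.2, 42.9 and 39.7 CPM without M2rtTA and 31.8, 37.3 and 35.8 against 37.6, 42.2 and 40.7 CPM with it, but did not pass in either arm (adjusted p = 0.134 and 0.297). Over lines CDKN1A rose without M2rtTA (log2 fold change 0.56, SE 0.09, adjusted p = 1.36e-05) and with it (log2 fold change 0.67, SE 0.09, adjusted p = 2.00e-07). The other inhibitor, CDKN2B or p15, had at most 17 counts in any of the 48 libraries outside HPAFII and could not be tested in the transduced lines. Its gene overlaps an antisense transcript, CDKN2B-AS1, with the same limit of strand as TYMS.

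With M2rtTA the OVOL2 effect differed between lines for 4 of the 49 genes (test with 2 degrees of freedom; 7.56% of all genes passed, so the count is near the background): RRM2 (adjusted p = 0.00427), BUB1 (0.0152), CDKN1A (0.0206) and UBE2C (0.0221). RRM2 fell in KP4 (-0.85, SE 0.12) and PK45H (-0.62, SE 0.13) and had -0.04 in PANC1 (SE 0.14, adjusted p = 0.895). BUB1 fell in all 3 lines and furthest in PK45H (-1.94, SE 0.22), with -0.82 in KP4 and -0.97 in PANC1. UBE2C fell in PK45H, from 152, 257 and 125 to 77.2, 44.9 and 61.6 CPM (-1.54, SE 0.33, adjusted p = 0.00621), and had -0.19 in KP4 and 0.07 in PANC1, neither past the threshold. CDKN1A had 0.63, 0.24 and 1.14 in KP4, PANC1 and PK45H. Without PK45H OVOL2 with M2rtTA replicate 2, 2 of the 4 calls were left. Without M2rtTA no gene passed this test with edgeR (4 at an unadjusted p under 0.05, 2.74% of all genes called), and DESeq2 called 1, NUSAP1.

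**Figure D5:**
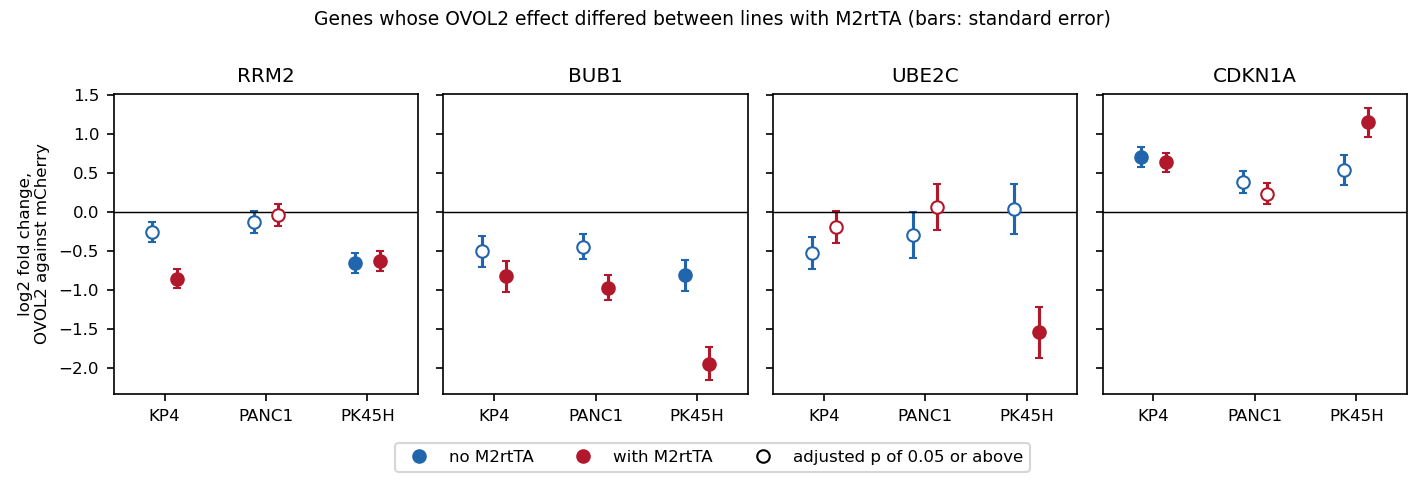
Log2 fold change of OVOL2 against mCherry (y axis, bars are standard errors) in KP4, PANC1 and PK45H (x axis) for the 4 genes whose effect differed between lines with M2rtTA, without M2rtTA (blue) and with it (red); open points did not pass an adjusted p of 0.05. RRM2 is near 0 in PANC1, and UBE2C is below -1 in PK45H with M2rtTA.

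The arms with and without M2rtTA were compared directly by the difference of their OVOL2 effects. Over lines 5 of the 49 genes passed, all with a deeper fall with M2rtTA (10.2%, where 7.72% of all genes passed, 5.11% in that direction): BUB1 (log2 fold change -0.67, SE 0.16, adjusted p = 0.00523), CCNB2 (log2 fold change -0.64, SE 0.16, adjusted p = 0.0102), AURKA (log2 fold change -0.54, SE 0.14, adjusted p = 0.013), CCNB1 (log2 fold change -0.46, SE 0.12, adjusted p = 0.0134) and PCNA (log2 fold change -0.47, SE 0.14, adjusted p = 0.0308). The other 44, among them TOP2A and CDKN1A, did not pass, which does not show that the arms acted alike. PCNA lost its call in 14 of the 36 fits that left out 1 of the libraries compared, with an adjusted p of up to 0.0703, and the other 4 lost it in none. By line, CCNB1 passed in KP4 (log2 fold change -0.63, SE 0.14, adjusted p = 0.0477, 1.43% of all genes called, 1.01% in that direction), but in none of the 12 fits without 1 of the libraries, nor under RLE scaling, no filter, a replicate block or a fit of only the groups compared. No gene passed with edgeR in PANC1 (5 at an unadjusted p under 0.05, 0 with DESeq2, 0.136% of all genes called) or PK45H (10 unadjusted, 1.6% of all genes called), where DESeq2 called 5: BUB1, CCNB1, CCNB2, TTK and UBE2C.

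M2rtTA without OVOL2 left these genes without a call. Comparing mCherry with M2rtTA to mCherry alone, edgeR called 0 of 49 in KP4, PANC1, PK45H and their mean (2, 2, 8 and 2 at an unadjusted p under 0.05), and DESeq2 also called 0 in each. Over all genes the same test called 0% in KP4 and PANC1, 0.0294% in PK45H and 0.0602% in the mean over lines. The median log2 fold change over lines was -0.02 with a median standard error of 0.11, and the 49 values ran from -0.32 (CDT1) to 0.36 (CCNE1). CDKN1A had the smallest p, at 0.31 (SE 0.09, unadjusted p = 0.00154, adjusted p = 0.242). The summed level of the 48 genes was narrowly lower in PK45H, at 3206.2 to 3309 CPM in mCherry with M2rtTA and 3310.3 to 3547.3 CPM in mCherry libraries. In KP4 and PANC1 these libraries overlapped.

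Transduction and selection gave the same count. Comparing mCherry to untreated cells, edgeR called 0 of 49 in each line and over lines (4 in KP4, 3 in PANC1, 4 in PK45H and 4 over lines at an unadjusted p under 0.05), where it called 0%, 0.598%, 0.00736% and 0.489% of all genes. DESeq2 called PCNA in PANC1 (adjusted p = 0.0305) and RRM2 over lines (0.0336). PCNA was at 108, 75.3 and 94.4 CPM in untreated PANC1 and 59.5, 58.9 and 61.8 CPM with mCherry, 2 sets that did not overlap, with an edgeR log2 fold change of -0.60 (SE 0.15, adjusted p = 0.112). Over lines the median change of the 49 was -0.07 with a median standard error of 0.11, from -0.27 (CCNE2) to 0.28 (KIF2C). The summed level of the 48 genes was lower in PANC1 with mCherry, at 3018.5 to 3338.1 CPM against 3468.8 to 3758.4 CPM in untreated libraries, with no overlap. In KP4 and PK45H the mCherry and untreated sums overlapped. The comparisons with untreated cells share the mCherry libraries with the OVOL2 comparisons.

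Other cell cycle genes, from lists not limited to the 51, are set beside them over lines, where 18.1% of all genes tested passed without M2rtTA and 32.9% with it. Of 62 other G2/M genes, 32 fell and 0 rose without M2rtTA (median -0.39) and 47 fell and 0 rose with it (-0.63). With M2rtTA the smallest p-values were for UBE2S, an APC/C ubiquitin enzyme (log2 fold change -1.05, SE 0.08, adjusted p = 1.17e-12), DLGAP5, a spindle protein (log2 fold change -1.12, SE 0.11, adjusted p = 4.65e-10), and CENPW, a kinetochore protein (log2 fold change -1.27, SE 0.12, adjusted p = 9.37e-11). Of 54 other G1/S and replication genes, 19 fell without M2rtTA (median -0.30) and 34 with it (-0.52), with none rising. CDCA7, an E2F and MYC target (log2 fold change -2.33 with M2rtTA, SE 0.18, adjusted p = 1.13e-12), fell more than any of the 49, and GMNN, the licensing inhibitor geminin, also fell (log2 fold change -1.12, SE 0.13, adjusted p = 1.26e-08).

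Of 18 other G1 regulators, 4 fell without M2rtTA (median -0.15), and with it 2 fell and 2 rose (-0.08). The share called was 22.2% in each arm, against 18.1% and 32.9% of all genes, so it was near the background without M2rtTA and below it with M2rtTA. SKP2, the F-box protein that marks the CDK inhibitor p27 for degradation, fell without M2rtTA (log2 fold change -1.46, SE 0.14, adjusted p = 4.03e-10) and with it (log2 fold change -1.98, SE 0.14, adjusted p = 1.54e-13). With M2rtTA SKP2 fell in every line, with a log2 fold change of -2.56 in KP4 (adjusted p = 1.87e-06), -1.98 in PK45H (5.29e-06) and -1.38 in PANC1 (0.0112). CDKN3, a CDK phosphatase, fell by 0.79, while the CDK inhibitor genes CDKN1C (p57) and, named after its value was seen, CDKN2D (p19) rose by 0.97 and 1.07 with M2rtTA (adjusted p = 5.82e-07, 0.000143 and 0.000503). Of 26 tested p53 target genes, 2 rose and 2 fell without M2rtTA, and 6 rose and 4 fell with it (medians 0.17 and 0.12). These shares, 15.4% and 38.5%, were near those of all genes. GDF15, a stress-induced secreted factor, rose (log2 fold change 1.51 with M2rtTA, SE 0.19, adjusted p = 6.81e-08), while CCNG1, a cyclin induced by p53, and FAS, a death receptor, fell (CCNG1 at -1.25 with M2rtTA, adjusted p = 1.78e-12, and FAS at an adjusted p of 1.42e-06).

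In the untreated cells the 5 lines differed from each other in 35 of 49 tested genes, where 57.8% of all genes tested passed. CDKN2B is left out of this count because it passed the filter on low counts only through HPAFII. The summed level of the 48 genes was 4200 ± 310 CPM (SD, n = 3) in KP4, 3617 ± 119 in PK45H, 3569 ± 164 in PANC1, 2952 ± 91.6 in PATU8988S and 2661 ± 275 in HPAFII. KP4 was the highest line for 24 of the 50 genes that passed the filter (CDKN2B included), HPAFII the lowest for 21 and PATU8988S the lowest for 18. These ranks and sums used all 3 HPAFII libraries, which summed to 2803.5, 2343.4 (the shallow replicate 2) and 2835.6 CPM. They were not repeated without replicate 2. TYMS ranged from 65.1, 86.1 and 65 CPM in HPAFII to 362, 669 and 336 CPM in KP4 (adjusted p = 5.96e-05). CDKN2B was at 20.4, 12.5 and 17.5 CPM in HPAFII and at most 1.60 CPM in the untreated libraries of the other 4 lines, values given as a description without a test. CCNB2 was highest in KP4, at 86.2, 84.7 and 91.5 CPM, and MYBL2 in PATU8988S, at 43.1, 51.7 and 40.4 CPM, where no other untreated library reached it. PRC1 was lowest in HPAFII, at 32.7, 11 and 40.7 CPM, with the shallow replicate 2 at the bottom. Without that library 40 of the 49 genes passed, and the adjusted p of PRC1 was 0.000499 against 0.00374 with it.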

How the data were processed

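Per the labels' protocols, 100 ng of total RNA per well was sequenced by PLATE-seq. The authors deposited unscaled whole-number counts for each gene symbol, and the submitters' processing notes name kallisto 0.44.0 and the GRCh38 build. kallisto estimates counts, so the whole numbers may be rounded estimates. The handling of molecular identifiers and of strand is not given in the sources used here. All columns were matched to samples by the label's description.

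Counts were tested in R 4.3.3 with the edgeR 4.0.16 quasi-likelihood test after filterByExpr by group and TMM scaling. Within a line, 15 libraries in 5 groups shared a fit. The mean over lines and the test of differences between lines used 45 libraries, and the untreated lines a fit of 15. P-values were two-sided and Benjamini-Hochberg adjusted over all genes tested, with a threshold of 0.05. Standard errors came from the test statistic. CPM used TMM factors over all 51 libraries. The tests were run on simulated data with known changes first. Alternatives were RLE scaling, no filter, DESeq2 1.42.0, only the groups compared, a replicate block and leaving out each library. Promoter windows were searched for exact letters, the first listed window per gene.

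The genes, lists and tests were chosen with earlier results of these data known. Named were MKI67, TOP2A, CCND1, CCNE1, CCNB1, E2F1, MCM2, PCNA, CDKN1A and CDKN2B whatever their values, up to 6 called genes per direction by p in each OVOL2 comparison, up to 5 in other comparisons, the 5 with the widest range over untreated lines, the ends of a role group's range, and up to 3 called genes per other list. A gene that this rule named is not reported here.

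Replicate numbers were not found to pair libraries across groups. Same-numbered libraries had deviations from their group means whose median correlation was -0.019 in KP4, 0.006 in PANC1 and 0.003 in PK45H.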

Additional observations from a re-analysis of the deposited data

Results flagged for a closer look

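For 5 genes the OVOL2 effect over lines differed between the arms with and without M2rtTA by a test of the difference itself (edgeR): BUB1 (adjusted p = 0.00523), CCNB2 (0.0102), AURKA (0.013), CCNB1 (0.0134) and PCNA (0.0308). The test called 10.2% of the 49 genes and 7.72% of all genes, 5.11% of them lower as a share of all genes. In each the fall was deeper with M2rtTA, and PCNA lost its call in 14 of 36 fits that left out 1 library. In KP4 alone the same test passed for CCNB1 (adjusted p = 0.0477), and this call was lost in each of the 12 fits that left out 1 library.

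For 4 genes the OVOL2 effect with M2rtTA differed between KP4, PANC1 and PK45H by a test with 2 degrees of freedom: RRM2 (adjusted p = 0.00427), BUB1 (0.0152), CDKN1A (0.0206) and UBE2C (0.0221). The test called 7.56% of all genes, so 4 of 49 is near the background. The RRM2 change was nearest 0 in PANC1, and the BUB1, UBE2C and CDKN1A changes were farthest from 0 in PK45H. No cause of these differences was tested.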

How the results depend on the processing

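Of the counts of genes called, those over lines for OVOL2 in both arms, for the change of the OVOL2 effect with M2rtTA, and for the untreated lines moved by less than 1.5 times under each alternative that was run. Fits of only the groups compared lowered the calls without M2rtTA, to 4 in PANC1 (8 in the fit of 15 libraries) and 4 in PK45H (9). DESeq2 called 2 genes for the M2rtTA change in KP4 (1 with edgeR), 5 in PK45H (0), 1 for a difference between lines without M2rtTA (0), and 1 for mCherry against untreated both in PANC1 and over lines (0). Leaving out 1 library at a time gave, without M2rtTA, 3 to 5 calls in KP4 (6 with all libraries), 4 to 7 in PANC1 (8) and 5 to 11 in PK45H (9). It gave 0 to 1 for the M2rtTA change in KP4, 0 to 2 in PK45H, and 0 to 1 without M2rtTA and 2 to 5 with it for a difference between lines. The M2rtTA change of CCNB1 in KP4 lost its call under RLE scaling, without the filter and with only the groups compared (0 genes called in each), and PCNA lost its change over lines without the filter and its PK45H call with M2rtTA in the fit of only the groups compared. The cause was not tested.

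Replicate numbers were not found to pair the libraries. With the replicate number as a block, the M2rtTA change in KP4 had 0 calls, and TOP2A in PK45H without M2rtTA had an adjusted p of 0.0595. CCND1 in PK45H with M2rtTA went to -0.0112.

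Values that changed sign were those of genes that had not passed. MKI67 in KP4 without M2rtTA was at 0.0074 with no filter and from -0.0807 to 0.0419 without single libraries. Leaving out single libraries gave, without M2rtTA, E2F1 from -0.24 to 0.29 in KP4 and from -0.61 to 0.0525 in PANC1, and CCND1 from -0.25 to 0.54 in PANC1 and from -0.15 to 0.11 over lines. With M2rtTA it gave CCND1 from -0.0525 to 0.39 in PANC1, from -0.21 to 0.35 in PK45H and from -0.17 to 0.0104 over lines, CCNE1 from -0.18 to 0.44 and E2F1 from -0.0858 to 0.32 in PANC1. MCM2, CDKN2B and CCNE1 had few counts, and the reason was not tested. HPAFII replicate 2 was the shallowest library.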

Other observations

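MCM2 had 29 counts over the 51 libraries and was at 0 in 39 of them, while MCM3, MCM4, MCM5, MCM6 and MCM7 of the same helicase passed the filter on low counts in the transduced lines. CDKN2B had at most 3 counts in 34 of the 48 libraries outside HPAFII.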
